A study of Homo sapiens with 9 samples.

Results

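The 10 replication licensing genes MCM2, MCM3, MCM4, MCM5, MCM6, MCM7, CDC6, CDT1, ORC1 and GMNN were chosen by name from 19812 protein-coding genes, and every ATAC-seq peak overlapping a gene body or the 10 kb on either side was taken. ATAC-seq measures open chromatin, because a transposase inserts sequencing adapters where DNA is accessible. All cells were HepG2, a human liver cancer line that divides in culture. They were transfected for 72 h with 50 nM of a non-targeting siRNA (NTG, AM4611) or of 1 of 2 siRNAs against the remodeling ATPase INO80 (siINO80#1, s224308, and siINO80#2, 29255). Each siRNA had 3 replicates, from separate transfections, but 1 peak list, so there was no spread between replicates and no difference between lists could be tested. The lists do not measure INO80 itself, so the depletion could not be checked in them.

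Before a cell copies its DNA, each replication origin is licensed by loading of a ring-shaped helicase built from MCM2, MCM3, MCM4, MCM5, MCM6 and MCM7. ORC1 is the subunit of the origin recognition complex that is most tightly tied to the cell cycle, CDC6 and CDT1 bring the helicase to ORC on DNA, and geminin, encoded by GMNN, binds CDT1 and keeps it from loading again until the next cycle. E2F factors switch many of these genes on as cells enter S phase, and INO80 is known to act at replication forks.

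The DNA just upstream of 6 of the starts is shown because it carries the motifs counted below, and because it includes CDT1, the gene without a start-site peak. Each stretch holds 150 bases before the transcript start and up to 30 bases from it, read 5′ to 3′ in the direction of the gene from GRCh37 (hg19). Capitals mark exact matches, on either strand, to an E2F motif (TTTCCCGC, TTTGGCGC, TTTCGCGC or TTTGCCGC), a CCAAT box (CCAAT) or a GC box (GGGCGG).
MCM2 (chr3:127317104-127317275, plus strand): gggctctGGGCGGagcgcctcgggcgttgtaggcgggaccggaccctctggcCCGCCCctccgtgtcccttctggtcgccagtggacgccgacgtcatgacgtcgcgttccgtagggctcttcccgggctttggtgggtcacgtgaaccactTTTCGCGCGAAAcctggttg
MCM3 (chr6:52149650-52149829, minus strand): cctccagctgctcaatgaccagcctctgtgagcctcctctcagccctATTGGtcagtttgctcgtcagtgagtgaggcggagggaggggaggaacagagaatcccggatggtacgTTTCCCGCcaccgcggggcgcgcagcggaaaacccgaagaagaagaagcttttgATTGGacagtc
MCM5 (chr22:35795980-35796156, plus strand): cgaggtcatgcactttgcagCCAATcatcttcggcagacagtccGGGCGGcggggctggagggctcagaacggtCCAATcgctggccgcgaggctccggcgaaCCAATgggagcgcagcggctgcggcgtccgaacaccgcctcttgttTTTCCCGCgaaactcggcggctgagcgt
MCM6 (chr2:136633984-136634163, minus strand): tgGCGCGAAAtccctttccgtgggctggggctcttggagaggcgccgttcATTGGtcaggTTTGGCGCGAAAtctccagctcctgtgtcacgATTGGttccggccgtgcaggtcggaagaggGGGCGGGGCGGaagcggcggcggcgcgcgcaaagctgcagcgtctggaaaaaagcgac
CDC6 (chr17:38443981-38444160, plus strand): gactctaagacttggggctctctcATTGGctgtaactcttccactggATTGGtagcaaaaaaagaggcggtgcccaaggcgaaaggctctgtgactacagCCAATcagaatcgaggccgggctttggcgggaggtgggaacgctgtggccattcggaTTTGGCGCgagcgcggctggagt
CDT1 (chr16:88870047-88870226, plus strand): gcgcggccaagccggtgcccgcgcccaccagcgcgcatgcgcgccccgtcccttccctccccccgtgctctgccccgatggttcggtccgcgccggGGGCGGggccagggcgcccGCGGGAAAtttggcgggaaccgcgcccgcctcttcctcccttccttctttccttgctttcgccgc

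E2F motifs were found within 150 bp of the NTG summit, the point of highest signal in a peak, in 7 of the 9 licensing genes with a start-site peak, whereas 4.58% of 10210 start-site summits of protein-coding genes held one. ORC1 and MCM7 were the members without. Positions are counted from the start, with 1 as the first transcribed base and -1 as the base before it. In MCM2 overlapping matches on both strands began at 3 and 7 and formed a palindrome. In MCM6 overlapping matches on both strands, not palindromic, began at -90 and -86, and a further match at -148. In MCM3 the motif began at -35 of the start used here, in MCM5 at -1 and in CDC6 at 8. CCAAT boxes, the site of NF-Y, were present in 8 of the 9, all but MCM2, against 36.4% of all summits. MCM5 and CDC6 each had 3 of them in the stretches shown. GC boxes, bound by SP factors, were present in 7 of the 9 against 68.0%, and were absent from MCM3 and CDC6.

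The cell cycle genes homology region (CHR; TTTGAA or TTCGAA), the cyclic AMP response element (CRE; TGACGTCA) and the AP-1 motif (TGACTCA or TGAGTCA) were matched in 0 of the 9 windows, against 9.48%, 2.5% and 3.8% of all summits. With shares this low, few or no matches among 9 windows say little about the members. ORC1 alone held the core of YY1 (AAGATGG), a partner of INO80, against 6.15% of all summits. In RefSeq promoter windows of 250 bases before to 50 after the start (GRCh38.p14, 8 members matched), 7 of 8 members held an E2F motif, all but ORC1, against 4.12% of 21541 windows, and 1 of 8, MCM6, held a CHR, against 13.7%. Here members were counted by gene and the background by window, and a gene can have more than 1 window. The 7 with an E2F motif included CDT1, whose motif began at -35, and MCM7, whose NTG summit lay at an alternative start. The median GC content of the summit windows was 63.1% in the members and 65.8% over all summits. A match is a description of the letters in a window and does not show binding.

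**Figure D1:**
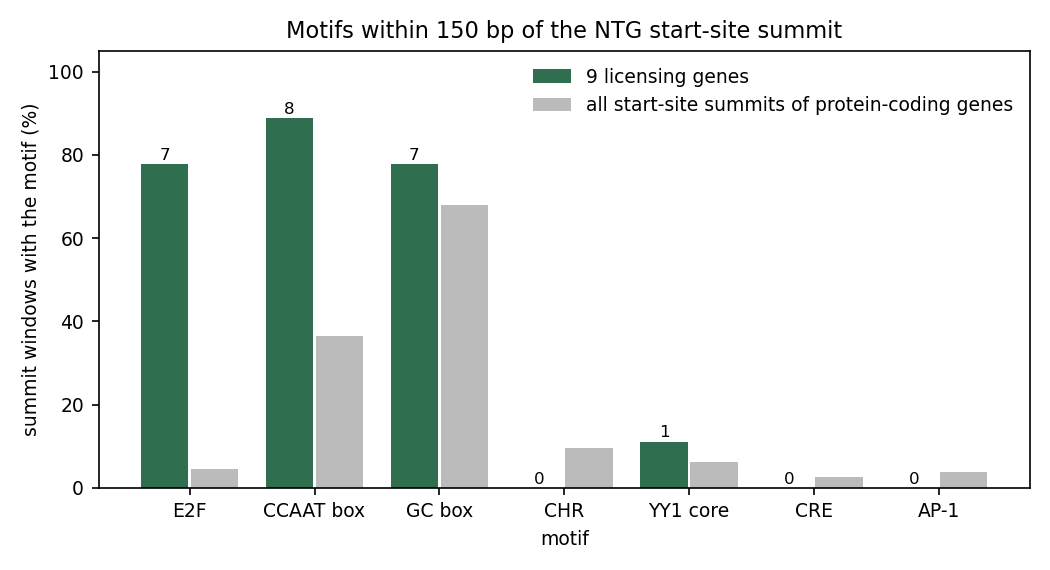
Share of windows reaching 150 bp to either side of the NTG start-site summit (y axis, %) that hold each motif (x axis), for the 9 licensing genes with a start-site peak (green, count above the bar) and for 10210 start-site summits of protein-coding genes (grey). E2F motifs were in 7 of 9 member windows and in 4.58% of all windows.

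A start-site peak, one whose summit lay within 1 kb of an annotated protein-coding transcript start, was found at 9 of the 10 licensing genes in NTG, in siINO80#1 and in siINO80#2. Over all protein-coding genes the shares were 57.8%, 57.7% and 51.1%, and 48.6% had one in all 3 lists. The members with and without a peak were the same in each list, and 9 of 9 start-site regions were shared by the 3 lists, compared with 66.9% of all regions at protein-coding starts. CDT1 was the exception. Of all protein-coding genes, 37.9% likewise had no start-site peak in any list.

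**Figure D2:**
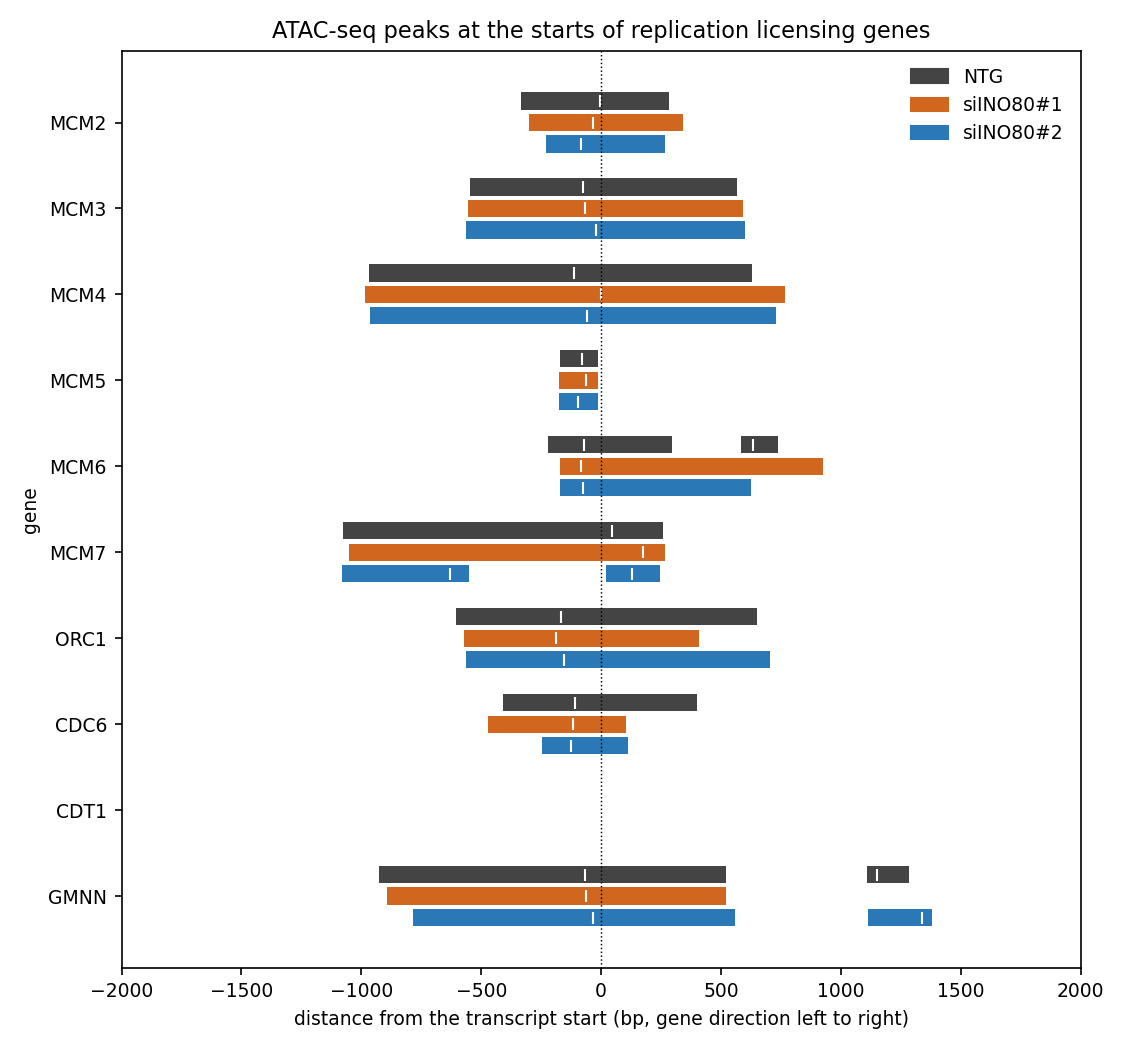
Called peaks (bars) and their summits (white ticks) around the transcript start of each licensing gene (y axis) in NTG (grey), siINO80#1 (orange) and siINO80#2 (blue). The x axis gives the distance in bp from the start nearest to the NTG summit, in the direction of the gene; CDT1 had no peak here, and those of MCM5 were 158 and 162 bp wide.

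The strength of a start-site peak was measured in 3 ways. Fold enrichment is the peak caller's ratio of reads at the summit to the local background of that list. Its percentile is its rank among the peaks of the same list, from weak to strong, in percent of their number. The recovered reads at the summit were also divided by the genome-wide background of the list, with a 95% Poisson interval that covers counting error only. The NTG list held 69730 peaks, siINO80#1 69333 and siINO80#2 53113, and their median fold enrichments were 3.38, 3.15 and 3.16. Percentiles are used to set lists side by side, with values at equal list size where the shorter siINO80#2 list moves them. As a check of the cell line, 11, 10 and 10 of 13 hepatocyte genes had a start-site peak in NTG, siINO80#1 and siINO80#2, with ALB in 1 list and AFP and FGB in none. Of 12 genes of other cell types 1 had one, the fibroblast and stellate cell gene COL1A2, in every list.

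Among the helicase subunits, MCM3 (NTG peak chr6:52149112-52150227) had the strongest start-site peak, with fold enrichments of 13.4 in NTG, 12.5 in siINO80#1 and 11.5 in siINO80#2. These were at percentiles 99.6, 99.4 and 99.4, near the top of each list. Its summit reads were 59.2 times the genome background in NTG (51.7 to 67.4), 47.7 times in siINO80#1 (41.9 to 54.1) and 40.1 times in siINO80#2 (34.9 to 45.9). The interval of siINO80#2 lay below that of NTG, although the rank moved by less than 1 percentage point. MCM3 was covered by a single interval of 1116, 1150 and 1162 bp, of almost the same extent in the 3 lists.

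MCM4 (NTG peak chr8:48872492-48874088) shares its promoter with the divergent gene PRKDC, the catalytic subunit of DNA-dependent protein kinase. It followed with fold enrichments of 7.76, 8.03 and 6.91 in NTG, siINO80#1 and siINO80#2. MCM4 was the 1 member whose percentile was higher with an INO80 siRNA, at 92.8 in NTG, 94.2 in siINO80#1 and 92.5 in siINO80#2. The summit reads over background were 17.5 (13.6 to 22.3), 18.6 (15.1 to 22.7) and 13.9 (10.9 to 17.4), and the 3 intervals overlapped.

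By fold over all peaks, the largest changes in rank with either siRNA were at MCM5, MCM2, MCM6 and MCM7. CDC6, described below, changed more than MCM7 with siINO80#1 and more than MCM2 with siINO80#2. MCM5 (NTG peak chr22:35795960-35796117, upstream of the start) had fold enrichments of 4.98 in NTG, 3.24 in siINO80#1 and 3.18 in siINO80#2, at percentiles 76.5, 51.7 and 50.7. Over all peaks it was thus lower by similar amounts with the 2 siRNAs, changes of -24.8 and -25.8 percentage points. Of all genes with a peak in the 3 lists, 4.16% and 13.0% had a change as low or lower. At equal list size the changes at MCM5 were further apart, -32.2 points with siINO80#1 and -18.4 with siINO80#2. The summit reads of MCM5 were 9.43 times the background in NTG (6.6 to 13.1), 5.62 in siINO80#1 (3.77 to 8.08) and 5.62 in siINO80#2 (3.79 to 8.03), so the counting intervals overlapped. MCM5 also had the narrowest leading start-site peak, 158 bp in NTG and 162 bp in both siINO80 lists, and the 3 intervals ended on the same base, 35796117 of chromosome 22, just before the transcript start. Of 27058 regions with exactly 1 peak in each list, 61 (0.225%) ended on the same base in the 3 lists.

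MCM2 (chr3:127316919-127317538), whose start-site region is also at an alternative start of TPRA1, had fold enrichments of 5.9, 3.78 and 4.44 in NTG, siINO80#1 and siINO80#2, at percentiles 83.9, 64.1 and 75.1. Here siINO80#1 gave the lower value, a change of -19.8 points against -8.77 for siINO80#2. The summit reads of MCM2 were 11.3 times the background (8.15 to 15.2), 7.18 (5.05 to 9.89) and 7.31 (5.2 to 9.99), again with overlapping intervals. MCM6 showed the opposite order, with fold enrichments of 5.93, 5.04 and 2.92 and percentiles of 84, 79.7 and 40.3. Its change of -43.7 points with siINO80#2 was matched or exceeded by 4.3% of genes, whereas the change of -4.35 with siINO80#1 was inside the middle of the distribution, with 27.8% of genes as low or lower. The MCM6 promoter (chr2:136633718-136634236, with chr2:136633275-136633429 in an intron) was called as separate intervals of 519 and 155 bp in NTG. It was 1 interval of 1095 bp in siINO80#1 and of 795 bp in siINO80#2. The summit reads of MCM6 were 11.3 times the background in NTG (8.15 to 15.2), 9.5 in siINO80#1 (7.03 to 12.6) and 5.44 in siINO80#2 (3.64 to 7.81).

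MCM7 (NTG peak chr7:99698232-99699567), whose start region is shared with AP4M1, had the weakest start-site peak in NTG, with fold enrichments of 4.17, 3.76 and 3.01 in NTG, siINO80#1 and siINO80#2. The summit reads of MCM7 were 9.17 times the background (6.38 to 12.7), 8.34 (6.04 to 11.2) and 6.37 (4.41 to 8.9). Its percentiles were 66.6, 63.9 and 45.1. In each list this was below the median of the protein-coding genes with a start-site peak in all 3 lists. One interval of 1336 bp in NTG and 1319 bp in siINO80#1 covered both the main start and the alternative start at which the summit lay. In siINO80#2 it was replaced by intervals of 229 and 531 bp with a gap between them.

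The loading factors had peaks of middle to high rank. ORC1 (NTG peak chr1:52869444-52870699), which shares its start-site region with the splicing factor gene PRPF38A, had fold enrichments of 6.3 in NTG, 5.86 in siINO80#1 and 5.27 in siINO80#2, at percentiles 86.4, 85.6 and 83.5. The 3 lists thus placed ORC1 within a few points of each other. Its summit reads were 10.2 times the background (7.26 to 14), 8.15 (5.87 to 11) and 7.12 (5.04 to 9.78). CDC6 (chr17:38443722-38444531), whose protein closes the ORC ring on DNA, had fold enrichments of 6.68, 5.68 and 4.47 and percentiles of 88.4, 84.2 and 75.4. CDC6 was lower in each siINO80 list, by less in siINO80#1 than in siINO80#2, and its peak was 810 bp wide in NTG, 579 in siINO80#1 and 357 in siINO80#2. The summit reads of CDC6 were 16.2 times the background in NTG (12.4 to 20.8), 12.6 in siINO80#1 (9.73 to 16.1) and 8.81 in siINO80#2 (6.47 to 11.7).

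GMNN (NTG peak chr6:24774714-24776163), the inhibitor, had the second strongest peak of the 10 genes, with fold enrichments of 9.13 in NTG, 8.9 in siINO80#1 and 7.15 in siINO80#2. Its percentiles were 96.1, 96 and 93.4. The summit reads were 26.2 times the background (21.3 to 31.9), 27.2 (22.8 to 32) and 18.9 (15.4 to 23). The extent of the peak, 1450, 1417 and 1344 bp, also differed little between the lists. Its summit moved little as well, and lay in an intron 69, 64 and 34 bp upstream of an alternative start.

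CDT1, the target of geminin, had no peak within its gene body in any list. The nearest calls were at the start of its neighbour APRT, an adenine salvage enzyme, 7.8 to 8.33 kb from the CDT1 start. They were weak in every list, with highest fold enrichments of 2.3 in NTG, 2.31 in siINO80#1 and 2.02 in siINO80#2. The local background used by the caller at these peaks was 3.61 to 3.9 times the genome background, compared with a median of 1.19 to 1.23 over all peaks. At least 98.6% of the peaks of each list had a lower one. A local background of this size was also found at the start-site peak of MCM3, the strongest of the members. There it was 4.17, 3.65 and 3.33 times the genome background in NTG, siINO80#1 and siINO80#2. The summit reads at APRT were 9.17, 8.73 and 7.5 times the genome background, close to those of 9.17, 8.34 and 6.37 at the start of MCM7, which was called at a higher fold. The CDT1 stretch shown above was 75.6% GC. The part of the local background and of base composition in the absent call was not tested.

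**Figure D3:**
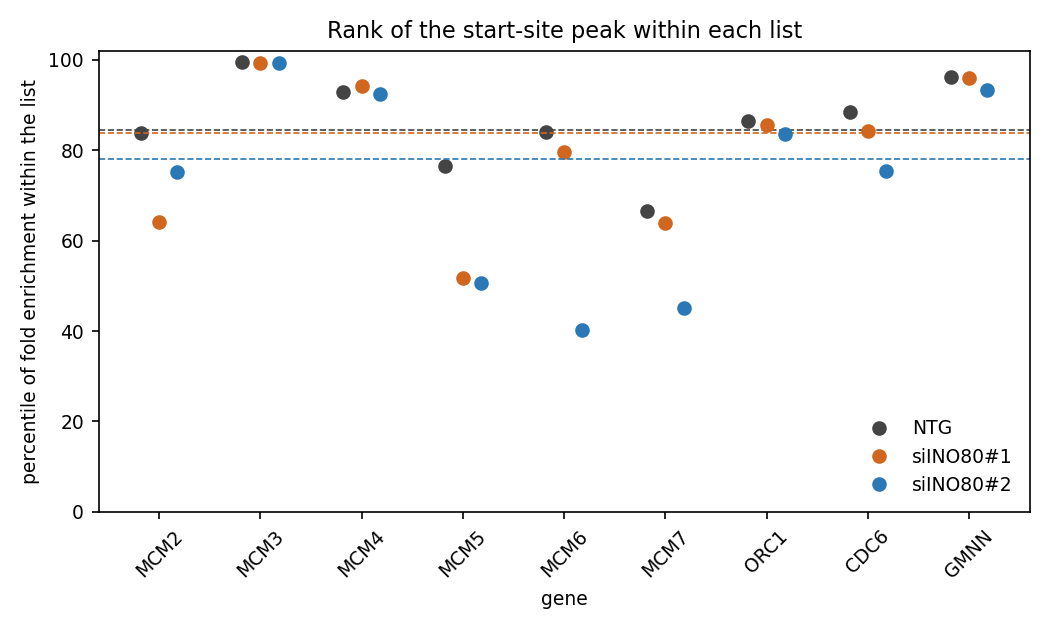
Percentile of fold enrichment of the start-site peak within its own list (y axis) for 9 licensing genes (x axis) in NTG, siINO80#1 and siINO80#2. Dashed lines are the medians over all protein-coding genes with a start-site peak in all 3 lists; MCM3, MCM4 and GMNN stayed high, and the 3 points of MCM2, MCM5, MCM6 and MCM7 were spread widest.

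Relative to NTG, the percentile was lower in siINO80#1 at 8 of the 9 licensing genes, compared with 52.1% of 9632 protein-coding genes with a start-site peak in all 3 lists. In siINO80#2 it was lower at 9 of 9, compared with 69.7%. It was lower in both lists at 8 of 9, compared with 45.2%. A percentile moves with the length of its list, and the siINO80#2 list was the shortest. With each list reduced to its 53113 strongest peaks, 9141 genes had a start-site peak in all 3 lists. The count for siINO80#2 was then 7 of 9, compared with 53.4% of these genes, and the differences at ORC1 and MCM4 were 1.43 and 1.95 points. At that list size 8 of 9 were lower in siINO80#1, compared with 51.8%, and 7 of 9 in both, compared with 38.2%. The median change of the members was -2.73 points with siINO80#1 and -8.77 with siINO80#2, and over all genes it was -0.18 and -3.75. At equal list size the medians with siINO80#2 were -3.72 for the members and -0.465 for the 9141 genes, and with siINO80#1 they were -3.31 and -0.194. The comparisons share the NTG list, so a high NTG value at a gene lowers both differences.

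The size of these changes depended on the gene. In siINO80#1 only MCM5 and MCM2 lay outside the middle part of all genes, which ran from -5.25 to 4.1 points between the lower and upper quartile. In siINO80#2 the corresponding range was -14.7 to 0.743, and MCM6, MCM5 and MCM7 lay below it. The change at MCM7 in siINO80#2 depended on the ranking, and was -11.1 points at equal list size and -9.41 by reads over background. The range between quartiles was computed for fold over all peaks only. Peaks were also ranked by fold, by −log10 q or by reads over background, each over all peaks and at equal list size. In all 6 rankings 5 of the 9, MCM2, MCM3, MCM5, MCM6 and CDC6, were lower in both siINO80 lists. The share was 32.2% of the 9141 genes with a start-site peak in all 3 lists at both list sizes. Over the 6 rankings the change at MCM5 ran from -32.2 to -18.9 points in siINO80#1 and from -25.8 to -12.1 in siINO80#2. At MCM7 it ran from -3.31 to 0.936 and from -21.5 to -3.44, and at MCM6 from -5.55 to -1.73 and from -43.7 to -21.4. At MCM3 the changes were all between -0.29 and -0.048 points.

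Taking reads over background with their counting intervals, 0 of 9 members lay wholly below NTG in siINO80#1, compared with 2.71% of all genes. In siINO80#2 it was 3 of 9, MCM3, MCM6 and CDC6, compared with 18.2%. By this measure most promoters were lower in siINO80#2, with a median log2 ratio to NTG of -0.48 over all genes and -0.56 over the members. In siINO80#1 the medians were -0.14 and -0.31.

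**Figure D4:**
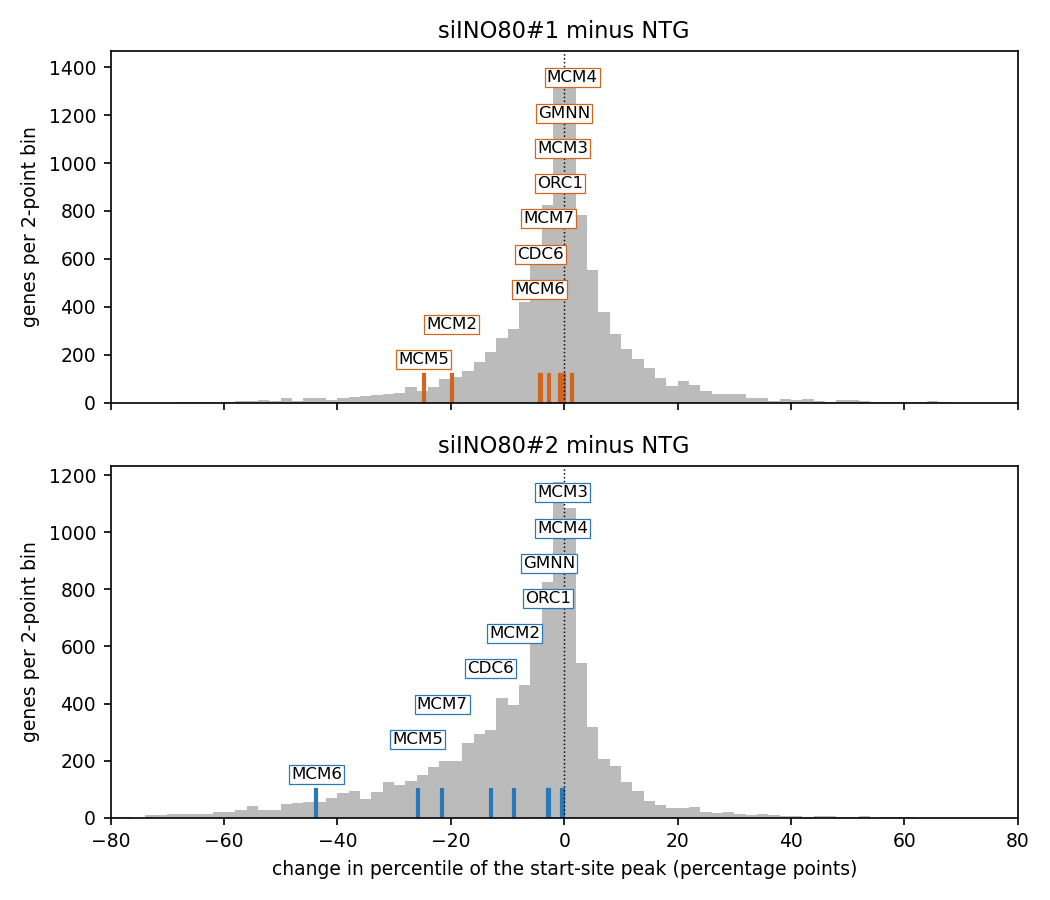
Change in the percentile of the start-site peak against NTG (x axis, percentage points) for siINO80#1 (top) and siINO80#2 (bottom). Grey bars count all 9632 genes with a start-site peak in all 3 lists in 2-point bins (y axis), and coloured ticks with labels mark the 9 licensing genes; MCM5 lay in the lower tail of both panels, MCM2 in that of siINO80#1 and MCM6 in that of siINO80#2.

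To set the members beside other promoters with the same motif, the genes were divided by the presence of an E2F motif at the NTG summit. Of 482 other genes with such a motif, 42.5% were lower in both siINO80 lists (Wilson 95% interval 38.2 to 47), compared with 45.2% of 9137 genes without one. Among 214 other genes with both an E2F motif and a CCAAT box the share was 47.7% (41.1 to 54.3). These shares use ranks over all peaks of each list, and the intervals take genes as independent although some share a peak. Whether the motif has a part in the changes of the members was not tested.

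Genes that act in, around or after licensing were taken as lists. The 44 other replication genes included origin firing factors, polymerases, clamp and clamp loader, and chromatin assembly genes. They also included ORC2, ORC3, ORC4, ORC5 and ORC6, of the same complex as ORC1, and MCM8, MCM9 and MCMBP. Of the 44, 42 had a start-site peak in NTG, 42 in siINO80#1 and 39 in siINO80#2, and 37 had one in all 3 lists. Of these 37, 13 were lower in both siINO80 lists and 12 were higher in both, with median changes of 1.5 and -0.994 points. Over all genes 45.2% were lower in both and 23.5% higher in both. A peak was missing in at least 1 list at CHAF1A, GINS2, POLA2, PRIM1, RECQL4, RFC1 and TIPIN. GINS2, a subunit of the GINS complex that joins the MCM ring in the active helicase, had a percentile of 78.5 in NTG and 73.4 in siINO80#1 and no peak in siINO80#2. POLA2, a subunit of DNA polymerase alpha, had one in NTG alone, at percentile 39.3.

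Of 17 regulators of licensing, 15, 16 and 13 had a start-site peak in NTG, siINO80#1 and siINO80#2. Of the 13 with one in all 3 lists, 5 were lower in both siINO80 lists and 6 were higher in both, against the same 45.2% and 23.5% of all genes. E2F1, a transcription factor of the licensing genes, had fold enrichments of 3.03 in NTG and 3.79 in siINO80#1 and no peak in siINO80#2. FZR1, an activator of the ligase that degrades geminin, had values of 3.19 and 2.97 and likewise none in siINO80#2. CCNE1, which encodes cyclin E1, had one in siINO80#1 alone, with a fold enrichment of 4.02, and E2F2 had none in any list.

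Away from the starts, the windows of the 10 genes held 13, 12 and 8 further peaks in NTG, siINO80#1 and siINO80#2. Together with the start-site peaks they merged into 29 regions over 399.7 kb of windows. The median was 5.54 regions per 100 kb per gene, compared with 4.11 over all protein-coding genes. The median number of regions per window was 2 in both sets, whose windows differ in length. The counts ran from 1 region at MCM5, MCM7 and CDC6 to 8 at MCM6. Of the 29 regions, 14 had a peak in all 3 lists (48.3%, Wilson 95% interval 31.4 to 65.6), compared with 26.8% of 111260 regions in the genome. Start-site regions were 9 of the 29 here and 13660 of the 111260 in the genome, and 66.9% of the latter were shared. Away from starts, 25% of the members' regions (11.2 to 46.9) and 21.2% of all regions elsewhere were in the 3 lists. Of the 20 regions away from starts, 5 were in all 3 lists, 5 in NTG alone, 5 in siINO80#1 alone, 2 in siINO80#2 alone, 2 in NTG with siINO80#1 and 1 in NTG with siINO80#2. Of all regions elsewhere, NTG alone made up 26.5%, siINO80#1 alone 23.4% and siINO80#2 alone 13.0%, close to the members' 25%, 25% and 10.0%. No region had a peak in both siINO80 lists and none in NTG, a class that made up 5.19% of the genome's regions. The share of 0 of 29 allows up to 11.7% by its Wilson interval.

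The strongest of these regions lay at starts of other genes or inside MCM4. In the ORC1 window the start of CC2D1B, 38 kb from the ORC1 start, had fold enrichments of 8.99 in NTG, 7.84 in siINO80#1 and 6.03 in siINO80#2, above those of ORC1 itself. MCM4 had a second region 6.33 kb inside the gene with fold enrichments of 7.4, 8.83 and 5.82. At percentiles 91.5, 95.9 and 87.2, it stood higher than the MCM4 start in siINO80#1 alone. Upstream of MCM2, a second region at a start of TPRA1 had values of 5.1, 3.78 and 3.5, and like the MCM2 start it was lower in both siINO80 lists.

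The regions found in NTG alone were weak. The highest was in an exon of MCM3 with a fold enrichment of 2.78, and the next were in introns of MCM6 with 2.54 and 2.42. Regions in siINO80#1 alone reached 3.35, downstream of MCM3, and those in siINO80#2 alone 2.64, in an intron of MCM6. MCM6 held 7 regions away from its start, of which none was shared by all 3 lists. Introns of MCM6 are known to hold regulatory DNA of the neighbouring lactase gene LCT. The 1 region there with peaks in more than 1 list, 25.2 kb from the MCM6 start, had fold enrichments of 3.34 in NTG and 2.79 in siINO80#1. In an intron of MCM3 a region 12.8 kb from the start was called in each list, with fold enrichments of 3.57, 2.47 and 3.91 in NTG, siINO80#1 and siINO80#2.

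**Figure D5:**
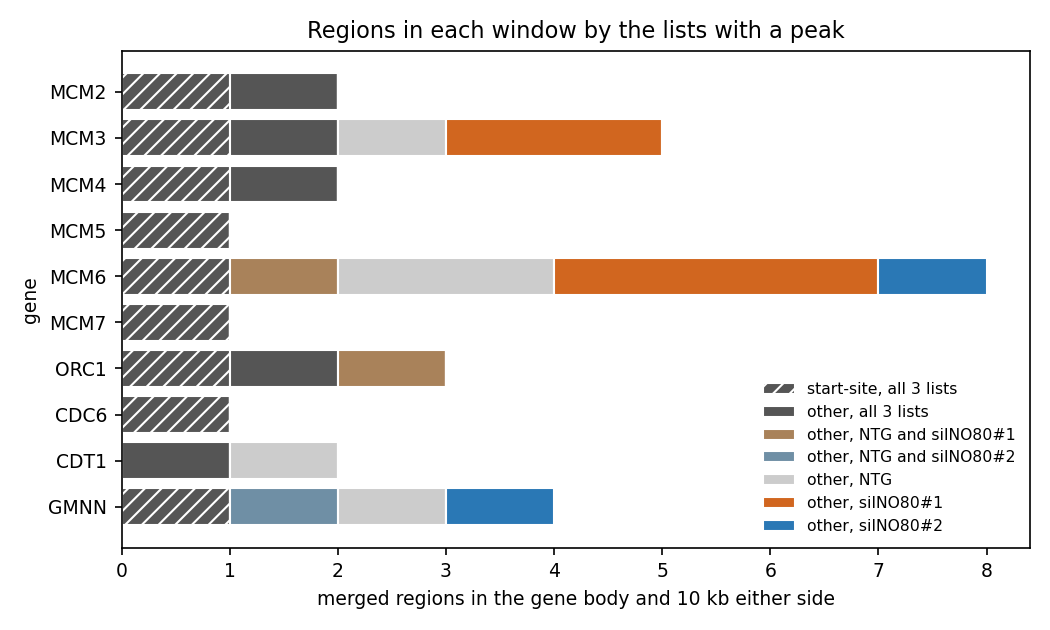
Number of merged regions (x axis) in the gene body and 10 kb either side of each licensing gene (y axis), coloured by the lists with a peak in them. Hatched parts are start-site regions, present in all 3 lists at 9 genes, and plain parts are other regions; CDT1 had no start-site region, and MCM6 had 7 other regions.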

How the data were processed

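ATAC-seq libraries of 9 HepG2 samples (3 siRNAs, 3 replicates each, grouped by sample title) were represented by 1 deposited peak list per siRNA, so replicates could not be compared. The submitters' processing notes name Trim Galore 0.4.1, Bowtie2, SAMtools, MACS2, deepTools 2.2.4 and hg19. The settings of these tools, any shift of reads for the transposase and the filter applied to the lists are not given in the sources used here. The fold enrichment of each peak, a ratio of summit to local background, and its p and q as −log10 values were deposited by the authors, with a lowest −log10 q of 1.3. The depth of the libraries is unknown.

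The list columns were read as they stood, and 0 columns were left out for lack of a sample. Where an interval had several summits, the one of highest fold stood for it. Reads at the summit and local background were solved from fold and −log10 p under the formulas of MACS2, with an error of at most 0.00121, and the smallest background in a list stood for the whole genome (3.82 reads in NTG, 5.16 in siINO80#1 and 5.34 in siINO80#2). Genes and starts were those of GENCODE release 44 lifted to GRCh37; 0 summits lay beyond a chromosome end. Lists were merged into regions from 1 bp of overlap. All 10 members were named, with their start-site peaks and, away from starts, the 3 strongest regions in NTG alone and in all 3 lists; other regions of the windows, and the edges of the MCM5 peak, were picked after their values were seen. The members and gene lists were chosen with earlier results of these data known. PECAM1 was not used. RefSeq promoter windows were of GRCh38.p14 and were used for motifs only.

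Shares carry Wilson and reads exact Poisson 95% intervals. No test between groups was made. Alternatives were a distance of 2.5 kb, other sets of starts, a −log10 q of at least 5, equal list size (53113 peaks), no flank or 25 kb, starts of other genes left out, 50% overlap and ranking by −log10 q or reads over background. The recovery of reads (4990 peaks), the merging (575 regions, against bedtools) and the start-site rule (300 genes) were tested on simulated data, and 100% were recovered. The tools were bedtools 2.31.1 and samtools 1.23.1, with Python 3.11.15 and its packages scipy 1.17.1, pandas 2.3.3, numpy 2.4.6, matplotlib 3.10.9 and pysam 0.24.0.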

Additional observations from a re-analysis of the deposited data

Results flagged for a closer look

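Over all peaks, the start-site peak of MCM4 ranked higher than in NTG in siINO80#1 and slightly lower in siINO80#2. Its percentile differed from NTG by 1.4 points in siINO80#1 and by -0.309 points in siINO80#2. Each siRNA had 1 list, so this difference was not tested. At equal list size both differences were above 0, at 1.88 and 1.95 points.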

How the results depend on the processing

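No paired analysis was possible because the replicate letters carried no values, with a single list for each siRNA. Leaving out each replicate in turn was not run for the same reason. Of 92 alternative values, 63 stayed within 1.5 times the count, or 5 percentage points, of the value reported. The number of members with a start-site peak stayed so in all 15 of its alternatives. It fell to 8 with the most upstream start alone in NTG and siINO80#1, and a −log10 q of at least 5 left 8 in siINO80#2. The counts of members lower in rank, 5 added rankings of which were chosen after seeing the data, ran from 6 to 8 in siINO80#1, from 7 to 9 in siINO80#2 and from 6 to 8 in both.

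The peaks away from starts were less stable. With a −log10 q of at least 5, each of the 3 lists kept 4 of them, and the regions of a single list numbered 0 for NTG, 1 for siINO80#1 and 0 for siINO80#2, with 1 shared by NTG and siINO80#1. At equal list size, NTG and siINO80#1 kept 6 such peaks each, and the regions in these classes were 1, 2, 4 and 1. Without a flank, the 3 lists kept 7, 6 and 4 such peaks, and the classes held 3, 3, 1 and 1 regions. With a flank of 25 kb there were 27, 26 and 15 peaks, and 10 regions had NTG peaks alone, 9 had siINO80#1 peaks alone and 5 had both of these. Leaving out peaks at starts of other genes left 8 in NTG and 5 in siINO80#2. Ranked by −log10 q, the median percentile of start-site peaks in siINO80#2 was 80.5 in place of 75.4. The cause of these moves was not tested beyond the fewer or further peaks that each setting admits. The class in both siINO80 lists and not NTG stayed at 0 regions in every setting run. The 33 peaks away from starts had a median of 28 reads at the summit, so most of their calls rest on few reads. Some start-site peaks rested on similar counts, with 36, 29 and 30 reads at MCM5 in NTG, siINO80#1 and siINO80#2. Others had many more, with 226, 246 and 214 at MCM3.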
